A study of Mus musculus with 6 samples.

Results

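Transcription factors that set up endoderm were followed as a group of 9 genes, Gata4, Gata6, Sox7, Sox17, Foxa1, Foxa2, Foxa3, Hnf4a and Hhex. They were chosen by name and found among the 52636 Ensembl gene identifiers of the count tables through their mouse symbols. RNA was sequenced from mouse E14 cells, an embryonic stem line, after 4 days in 5 µM retinoic acid (a unit the labels write as µm) without LIF and the MEK and GSK inhibitors used to keep them as stem cells. There were 3 libraries of wild-type cells and 3 libraries of cells in which an enhancer cluster had been knocked out, a cluster that the series title ties to HoxB activation and neural progenitor formation. Both groups shared the line, the retinoic acid and the time, and the number of knockout clones and the deleted positions are not stated in the labels. The design text calls the libraries biological replicates without naming separate cultures or clones, so p-values measure only the spread between these libraries.

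Endoderm forms early in the mouse embryo, once as primitive endoderm, which makes the visceral and parietal layers of the yolk sac, and again at gastrulation as definitive endoderm, the source of gut, liver and lung. GATA and FOXA proteins are known as pioneer factors that can bind closed chromatin, and SOX17 and SOX7 act beside them. Hnf4a and Hhex act later or more locally, in visceral endoderm and in the foregut and liver. Several of these genes are also used outside endoderm, Gata4 in heart, Sox7 and Sox17 in blood vessels, and Foxa1 and Foxa2 in the floor plate of the neural tube. In retinoic acid cultures of stem cells, extraembryonic endoderm is a well-known product beside neural cells.

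All 9 genes had enough reads to be tested, and 5 were higher and 3 lower in the knockout, with Foxa2 not passing the test. Gata6 doubled, Gata4 and Hnf4a rose, and the scarce Foxa3 rose from near its detection limit. Sox7 rose slightly. Sox17, Foxa1 and Hhex fell, so the SOX and FOXA families split, with members on either side of 0. Of all 15816 genes tested 68.6% changed, 34.5% higher and 34.0% lower, so 8 changed genes of 9 is to be read against that share. The median log2 fold change was 0.20 over the 9 factors and 0.0091 over all genes tested. Foxa3 and Hhex passed the filter on low counts only through the group in which they were higher.

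Sequences before RefSeq start sites are shown for the FOXA family, whose members moved apart, and for Hnf4a, which rose as Gata4 and Gata6 did. Where a gene had several start sites, the one whose window held a motif match is shown. Whether a match has a part in the changes was not tested. RefSeq promoter entries (GRCm38.p6) matched 5 of the 9 genes, Foxa1, Foxa2, Foxa3, Hnf4a and Hhex, with 8 start sites. Gata4, Gata6, Sox7 and Sox17 had no entry. Up to 250 bases before a start site were read, and printing stopped at the first base of an annotated exon of the gene except to complete a motif. Capitals mark a match to the GATA motif AGATAA or the FOX motif GTAAACA on either strand.
Foxa1: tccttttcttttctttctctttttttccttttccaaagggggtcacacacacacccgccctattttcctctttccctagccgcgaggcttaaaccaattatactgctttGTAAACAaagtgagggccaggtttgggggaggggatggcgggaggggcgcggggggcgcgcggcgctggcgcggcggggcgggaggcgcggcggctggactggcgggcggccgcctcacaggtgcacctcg
Foxa2: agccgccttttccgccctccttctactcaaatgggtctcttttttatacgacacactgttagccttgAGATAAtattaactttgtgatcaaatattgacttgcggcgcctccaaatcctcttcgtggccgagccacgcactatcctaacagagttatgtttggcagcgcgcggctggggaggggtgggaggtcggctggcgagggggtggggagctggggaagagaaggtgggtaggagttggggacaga
Foxa3: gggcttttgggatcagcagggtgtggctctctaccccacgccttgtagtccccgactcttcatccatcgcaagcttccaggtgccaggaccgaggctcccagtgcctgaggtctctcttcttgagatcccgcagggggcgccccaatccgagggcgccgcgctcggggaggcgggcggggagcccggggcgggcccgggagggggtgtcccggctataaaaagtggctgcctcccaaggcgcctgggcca
Hnf4a: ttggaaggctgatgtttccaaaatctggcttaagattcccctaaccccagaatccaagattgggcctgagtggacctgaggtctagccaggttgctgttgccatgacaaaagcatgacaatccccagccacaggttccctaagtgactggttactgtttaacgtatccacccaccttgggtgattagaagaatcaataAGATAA

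The Foxa1 sequence lies at chr12:57546122-57546361 on the minus strand, and its FOX match begins 141 bases before the start site. That stretch is inside the annotated gene, whose upstream end is at 57546916. The Foxa2 sequence, at chr2:148045465-148045714 on the minus strand, belongs to the most downstream of 3 start sites and has a GATA match that begins 183 bases before it, while the windows of the other Foxa2 start sites held no match. The Foxa3 sequence lies at chr7:19023540-19023789 on the minus strand and has no match. The Hnf4a sequence, at chr2:163506607-163506810 on the plus strand, belongs to the upstream of its start sites, and its GATA match begins 52 bases before that site and takes in 3 bases of an annotated exon. Windows of the same length held AGATAA in 9.99% and GTAAACA in 3.17% of 32851 RefSeq start sites. The SOX motif ACAATGG (3.02% of windows), an HNF4 motif (CAAAGTCCA, 0.384%) and a retinoic acid response element (AGGTCA repeated after 5 bases, 0.00913%) were also searched on both strands and matched none of the 8 windows. None of the motifs searched was found in the Hhex window or in the downstream Hnf4a window. A match describes the letters only, and a window without one says nothing about the factor.

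Among the zinc finger factors, Gata6 (ENSMUSG00000005836, GRCm38 chromosome 18, 11052064 to 11085635, plus strand), a gene without which primitive endoderm does not form, stood at 116.7, 112.8 and 109.6 CPM (reads of the gene scaled to its library's total after TMM) in wild-type replicates 1 to 3. In knockout replicates 1 to 3 it stood at 224.7, 228.7 and 238.0 CPM. Every knockout library lay near 2 times the level of every wild-type library, with a narrow spread in both groups. The log2 fold change was 1.03 (SE 0.045, 95% interval 0.93 to 1.12, n = 3 per group), with an adjusted p of 1.27e-16 in the quasi-likelihood test of edgeR after Benjamini-Hochberg adjustment. The noncoding gene 1010001N08Rik, on the other strand, covers 1.43% of the exon length of Gata6. As the strand setting of the counting was not given, how reads in the shared stretch were counted is not known. 1010001N08Rik was at 1.17 (SE 0.19) on the log2 scale, from 5.12 ± 0.483 to 11.6 ± 2.42 CPM (SD, n = 3), and was chosen after its values were seen.

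Gata4 (ENSMUSG00000021944, chromosome 14, 63198922 to 63271692, minus strand), its partner in visceral endoderm and a heart factor, stood at 59.1, 65.6 and 54.7 CPM in the wild-type libraries against 100.5, 94.0 and 87.5 CPM in the knockout libraries. The groups did not overlap, although the lowest knockout library lay closer to the wild-type range than for Gata6. The log2 fold change was 0.65 (SE 0.067, 95% interval 0.51 to 0.78, edgeR adjusted p = 3.18e-09). Summed per exon length, the pair held 33.1, 34.1 and 30.9 CPM per kb in the wild-type libraries against 60.3, 59.2 and 59.0 CPM per kb in the knockout libraries, a ratio of means of 1.82. Within a library, Gata6 per exon length was 1.18, 1.03 and 1.20 times Gata4 in wild type and 1.34, 1.46 and 1.63 times in the knockout, so the balance moved towards Gata6 in all 3 knockout libraries. The log2 ratio differed by 0.37 (two-sided exact permutation test, p = 0.1, the smallest that 3 against 3 libraries allow).

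The SOXF factors, which bind DNA through an HMG box, moved apart. Sox7 (ENSMUSG00000063060, chromosome 14, 63943673 to 63950732, plus strand), found in primitive and parietal endoderm and in endothelium, was the most highly expressed of the 9 per exon length in wild type. It measured 71.5, 76.7 and 79.6 CPM there and 81.8, 87.7 and 92.1 CPM in the knockout. The groups did not overlap but nearly met, and the rise was small, with a log2 fold change of 0.20 (SE 0.059, 95% interval 0.080 to 0.32, edgeR adjusted p = 0.00394). This is a fold of 1.15, well inside the middle of all tested genes, whose lower and upper quartiles were -0.47 and 0.52 on the log2 scale.

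Sox17 (ENSMUSG00000025902, chromosome 1, 4490931 to 4497354, minus strand), needed for definitive endoderm and also present in primitive endoderm, stood at 35.4, 32.01 and 28.7 CPM in the wild-type libraries against 20.4, 16.7 and 24.0 CPM in the knockout libraries. All knockout libraries were lower, with a relative spread wider than for the GATA factors. It fell by 0.65 on the log2 scale (SE 0.12, 95% interval -0.90 to -0.40, edgeR adjusted p = 3.22e-05). Exons of Gm37587 on the other strand cover 16.8% of its exon length, and that gene had between 0 and 2 counts in each library. How reads in that shared stretch were counted is not known either. Because Sox7 was much the larger of the pair, the summed SOXF level was 29.1, 29.95 and 30.2 CPM per kb in the wild-type libraries against 29.1, 30.1 and 32.9 CPM per kb in the knockout libraries, with overlapping ranges. The ratio of Sox17 to Sox7 per exon length was 0.342, 0.289 and 0.249 in the wild-type libraries against 0.172, 0.132 and 0.180 in the knockout libraries. The log2 ratio was lower by -0.86 as knockout minus wild type (two-sided exact permutation test, p = 0.1, the smallest possible).

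**Figure D1:**
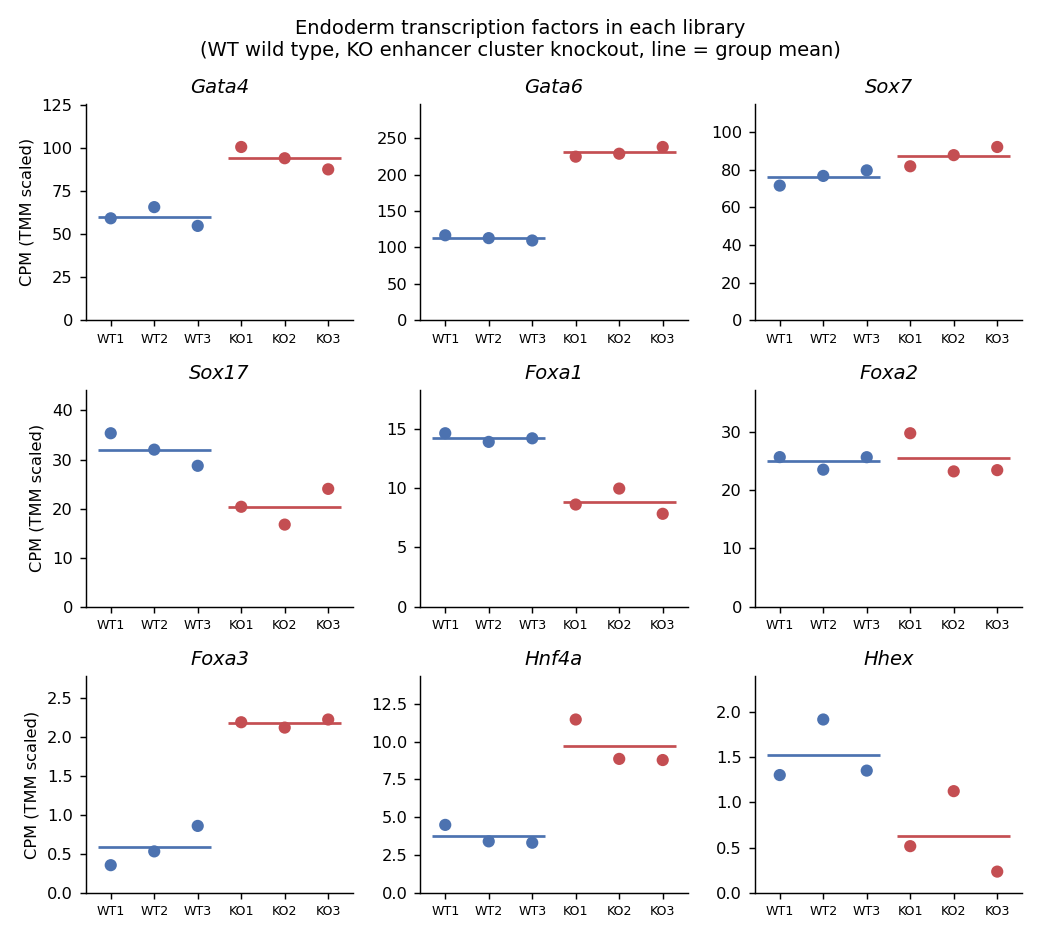
CPM after TMM scaling (y axis, each panel from 0) in the 3 wild-type (blue) and 3 knockout (red) libraries for each of the 9 factors, with lines at the group means. The groups separate in 8 panels, upwards for Gata4, Gata6, Sox7, Foxa3 and Hnf4a and downwards for Sox17, Foxa1 and Hhex, while the Foxa2 values of the groups overlap.

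The forkhead factors FOXA1, FOXA2 and FOXA3 share a winged-helix domain and work in overlapping ways in gut and liver, yet each gene behaved differently here. Foxa2 (ENSMUSG00000037025, chromosome 2, 148042877 to 148046969, minus strand), the earliest of them in the embryo, stood at 25.7, 23.5 and 25.6 CPM in the wild-type libraries against 29.8, 23.2 and 23.4 CPM in the knockout libraries. Knockout replicate 1 was the highest library and the other knockout libraries were the lowest, so the groups overlapped. The log2 fold change was 0.03 (SE 0.11, edgeR adjusted p = 0.829). Its 95% interval of -0.20 to 0.26 corresponds to folds of 0.869 to 1.20, so changes larger than that lie outside it. The noncoding gene 9030622O22Rik, 2674 bases away and chosen after its values were seen, had 9, 18 and 13 counts in the wild-type libraries against 9, 23 and 17 in the knockout libraries and did not pass the test either (edgeR adjusted p = 0.396).

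Foxa1 (ENSMUSG00000035451, chromosome 12, 57540628 to 57546916, minus strand) stood at 14.7, 13.9 and 14.2 CPM in wild type, a tight group, and at 8.63, 9.98 and 7.85 CPM in the knockout. All knockout libraries were lower. It fell by 0.70 on the log2 scale (SE 0.15, 95% interval -1.004 to -0.39, edgeR adjusted p = 0.000218). The ratio of Foxa1 to Foxa2 per exon length was 0.407, 0.422 and 0.395 in the wild-type libraries against 0.207, 0.306 and 0.239 in the knockout libraries (two-sided exact permutation test, p = 0.1, the smallest possible).

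Foxa3 (ENSMUSG00000040891, chromosome 7, 19013284 to 19023538, minus strand), the liver and visceral endoderm member of the family, had only 3, 5 and 7 counts in the wild-type libraries against 17, 17 and 19 counts in the knockout libraries. These are 0.355, 0.532 and 0.859 CPM against 2.19, 2.12 and 2.23 CPM. The knockout libraries were nearly equal and each lay far above the wild-type libraries. The log2 fold change was 1.89 (SE 0.45, 95% interval 0.96 to 2.82, edgeR adjusted p = 0.000631), the largest rise of the 9 and, with so few counts, one of the least precise. Because Foxa3 added little RNA, the summed FOXA level stayed within overlapping ranges, at 15.4, 14.4 and 15.5 CPM per kb in the wild-type libraries against 16.2, 13.8 and 13.3 CPM per kb in the knockout libraries. Sympk, a polyadenylation gene that lies 839 bases from Foxa3 on the other strand and was chosen after its values were seen, was at 0.52 (SE 0.042), from 221.1 ± 6.28 to 318.3 ± 9.78 CPM.

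Hnf4a (ENSMUSG00000017950, chromosome 2, 163506808 to 163572910, plus strand) encodes a nuclear receptor that drives lipid and apolipoprotein genes in visceral endoderm and liver. It had 38, 32 and 27 counts in the wild-type libraries against 89, 71 and 75 in the knockout libraries, or 4.49, 3.40 and 3.31 CPM against 11.5, 8.86 and 8.78 CPM. Each knockout library held more than any wild-type library by a wide gap. Hnf4a rose by 1.37 on the log2 scale (SE 0.21, 95% interval 0.94 to 1.80, edgeR adjusted p = 2.32e-06), a fold of 2.59. Its 2 RefSeq start sites, one of them shown above, cannot be told apart in counts per gene. Its antisense gene Hnf4aos had 0 counts in all 6 libraries.

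Hhex (ENSMUSG00000024986, chromosome 19, 37434810 to 37440731, plus strand), a homeobox gene of anterior endoderm and of liver and vessel precursors, was close to the limit of detection. It had 11, 18 and 11 counts in the wild-type libraries against 4, 9 and 2 counts in the knockout libraries, or 1.30, 1.91 and 1.35 CPM against 0.515, 1.12 and 0.234 CPM. The groups did not overlap, with a gap of about 2 counts between the nearest libraries. It fell by 1.29 on the log2 scale (SE 0.52, 95% interval -2.35 to -0.23, edgeR adjusted p = 0.0297). The call was lost in DESeq2 (adjusted p = 0.0792) and in edgeR without wild-type replicate 2 (0.127), knockout replicate 1 (0.0782) or knockout replicate 3 (0.157), and the fold change was -2.01 without knockout replicate 2.

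**Figure D2:**
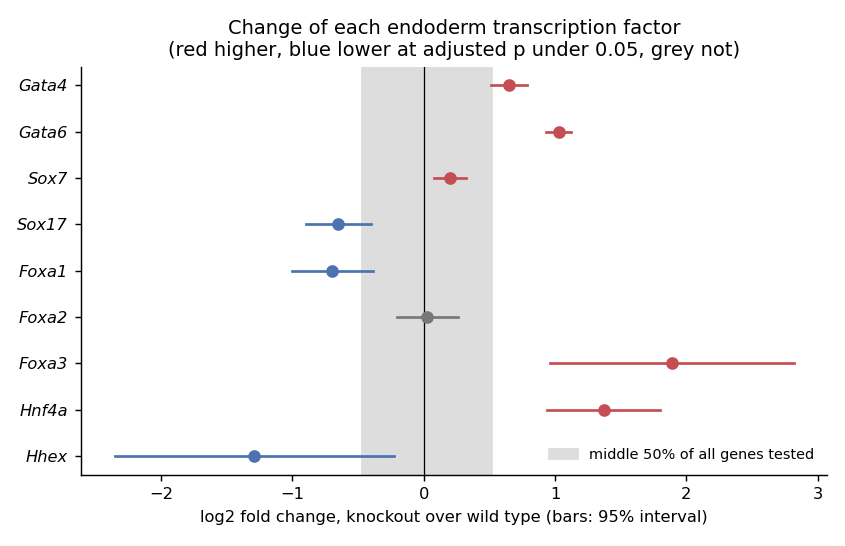
Log2 fold change of each factor, knockout over wild type (x axis), with 95% intervals from edgeR, 3 libraries per group, and the grey band from -0.47 to 0.52 holding the middle of all genes tested. Gata6, Foxa3 and Hnf4a lie right of the band with their whole intervals, Sox7 and Foxa2 lie inside it, and the interval of Hhex is the widest on the left.

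In 8 of the 9 genes the 3 knockout values lay all above (5) or all below (3) the wild-type values. The same was seen in 70.9% of all tested genes, 35.5% with the knockout above and 35.4% with it below. With counts scaled to library size in bulk RNA, a change in the number of cells that express a gene and a change in RNA per cell cannot be told apart. Gene counts were 7780368 to 9472916 per library, 36.0 to 38.4% of the reads tallied. The mitochondrial share of counts was 1.67 to 1.73% for the wild type, below the 2.58 to 2.89% of the knockout, and genes over ribosomal RNA repeats held 1.04% in knockout replicate 1 against 0.0726 to 0.118% elsewhere. Apart from the following values, the part of these shares in the results was not tested. Without knockout replicate 1 the counts of changed factors were 5 higher and 2 lower, Hhex being lost, and without mitochondrial and ribosomal RNA locus genes they were 5 higher and 3 lower.

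Per exon length the 9 genes spanned a wide range. In wild type the order was Sox7 (23.0 ± 1.24 CPM per kb, SD, n = 3), Gata6 (17.4 ± 0.549), Gata4 (15.3 ± 1.40), Foxa2 (10.5 ± 0.523), Sox17 (6.71 ± 0.696), Foxa1 (4.29 ± 0.110), Hnf4a (0.774 ± 0.136), Hhex (0.301 ± 0.0674) and Foxa3 (0.286 ± 0.126). Only the last pair of neighbours, Hhex and Foxa3, had overlapping ranges. In the knockout Gata6 led with 35.4 ± 1.05 CPM per kb, followed by Sox7 (26.4 ± 1.56) and Gata4 (24.1 ± 1.66), which overlapped each other. Foxa2 (10.7 ± 1.57), Sox17 (4.27 ± 0.764) and Foxa1 (2.65 ± 0.325) kept their order, and Hnf4a (2.01 ± 0.316) reached the range of Foxa1. Foxa3 (1.07 ± 0.0260) then lay above Hhex (0.123 ± 0.0899).

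**Figure D3:**
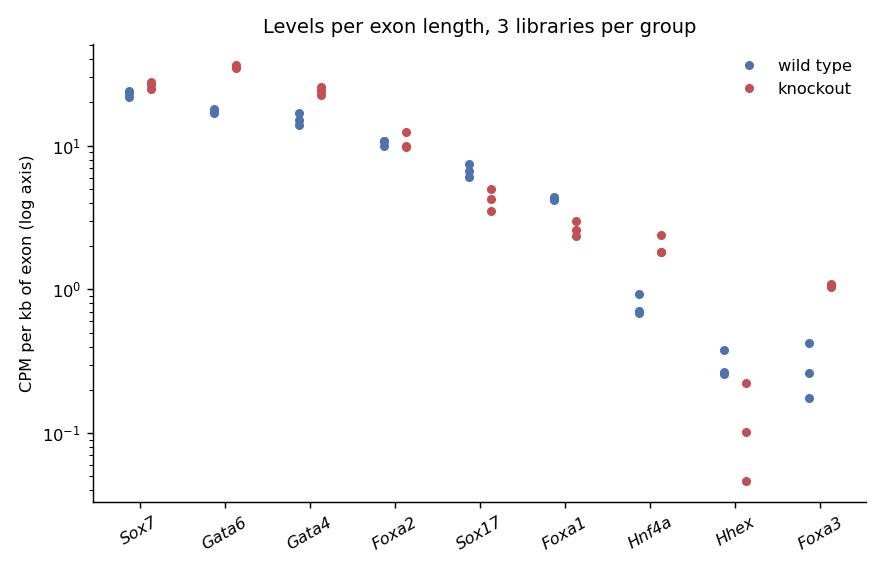
CPM per kb of exon (log axis) of each factor in the 3 wild-type (blue) and 3 knockout (red) libraries, ordered by the wild-type mean. Gata6 moves from below Sox7 in wild type, at 17.4 against 23.0, to above it in the knockout, at 35.4 against 26.4, and Foxa3 moves from the level of Hhex to above it.

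The summed level of all 9 factors was 78.8, 79.6 and 77.5 CPM per kb in the wild-type libraries against 108.0, 105.2 and 107.1 CPM per kb in the knockout libraries, with little spread in either group. Gata6 made up 22.1% of the wild-type sum and 33.2% of the knockout sum. Gata4 went from 19.5% to 22.5%, whereas Sox7 went from 29.3% to 24.8% and Sox17 from 8.54% to 4.00%. Among all tested genes, the per-length level of Gata6 moved from percentile 77.6 in wild type to 91.4 in the knockout, that of Hnf4a from 11.8 to 24.3 and that of Foxa3 from 3.64 to 14.3.

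**Figure D4:**
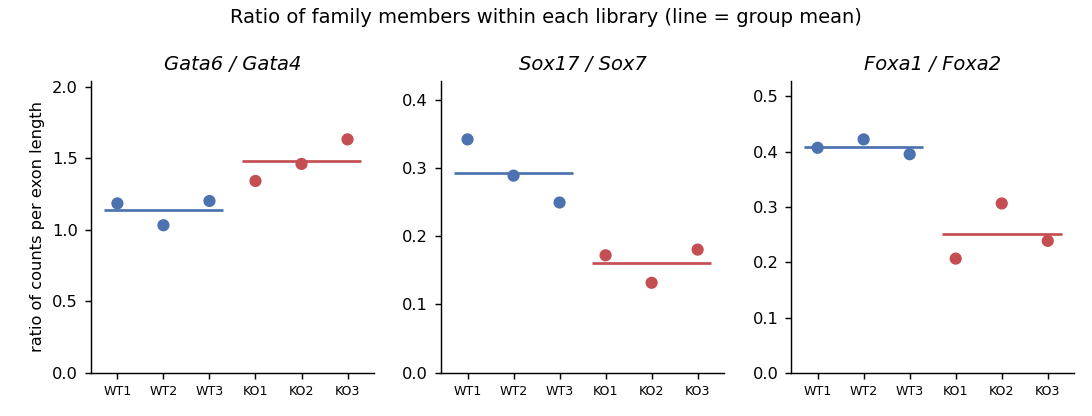
Ratio of counts per exon length between family members within each library (y axes from 0), with lines at the group means. The Gata6 to Gata4 ratio is higher in all 3 knockout libraries, from 1.34 to 1.63 against 1.03 to 1.20, and the Sox17 to Sox7 and Foxa1 to Foxa2 ratios are lower in all 3.

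Profiles were also compared by the root mean square difference, over the 6 libraries, of log2(CPM + 1) centred on each gene's mean. Among the 9 factors the closest pair was Gata6 and Foxa3 (0.160), followed by Gata6 and Hnf4a (0.178) and by Foxa1 and Hhex (0.187). Gata6 and Gata4 were at 0.216, and the farthest apart were Hnf4a and Hhex (0.976). Adding 1 CPM compresses the differences of scarce genes such as Foxa3 and Hhex. Against all tested genes of similar abundance, the nearest to Gata6 were Xpr1 (0.0233), Fnip2 (0.0259) and Nbeal1 (0.0268) of 4109. The nearest to Gata4 were Tyro3, Wdr11 and Neat1 (0.0300 to 0.0442), to Sox17 Arl10, Fzd8 and D8Ertd738e (0.0708 to 0.0801) and to Hnf4a Akr1c12, Gpr155 and Grid1 (0.0643 to 0.0667). Sox7 lay nearest to Apaf1, Sccpdh and Zcrb1, Foxa1 to Map3k20, Ube2a and Plpp1, Foxa2 to Zbtb49, Rpl13a and Rab40c, Foxa3 to Sox5, Lrrk2 and Drc3, and Hhex to Lrrc73, Gpx2 and Matn1. The 6 libraries fall into 2 groups, so this likeness is a description and carries no test.

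Other transcription factors of endoderm were counted in the same way. Of 16 listed, 9 passed the filter on low counts, with 3 higher, 4 lower and 2 that did not pass the test (median log2 fold change -0.19). The 7 changed of 9 lie near the 68.6% changed among all tested genes, so the count says nothing particular of this list. Prox1, a homeobox gene of liver precursors, rose by 1.12 (SE 0.15), from 9.35 ± 1.26 to 20.2 ± 2.82 CPM. Nr5a2, a nuclear receptor, fell by 1.49 (SE 0.19), from 11.3 ± 0.717 to 4.01 ± 0.846 CPM. Eomes, a T-box gene that opens the definitive endoderm programme, fell by 1.09 (SE 0.20), from 12.3 ± 3.45 to 5.76 ± 0.740 CPM. Otx2, a homeobox gene of anterior visceral endoderm, fell by 1.21 (SE 0.26), from 6.70 ± 0.359 to 2.90 ± 1.10 CPM. Onecut2 and the related Gata5 rose, and Lhx1 fell. Sox18, the remaining SOXF gene, had 1 count in wild-type replicate 2 and 1 in knockout replicate 2 and 0 elsewhere.

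Primitive endoderm is specified through FGF signalling, and FOG proteins are cofactors of GATA factors. In a list of both, 2 of 7 genes rose, 4 fell and 1 did not pass (median -0.42), beside 34.5% higher and 34.0% lower among all tested genes. The receptor gene Fgfr2 rose by 0.95 (SE 0.050), from 66.0 ± 1.56 to 127.6 ± 4.79 CPM, while Fgfr1 fell by 0.42 (SE 0.044), from 219.6 ± 2.11 to 164.5 ± 6.36 CPM. Zfpm1, encoding FOG1, rose by 0.56 (SE 0.050), from 87.2 ± 1.49 to 128.8 ± 7.53 CPM, and Ptpn11, a phosphatase that passes on receptor signals, fell by 0.68 (SE 0.049). The ligand gene Fgf4 and the adaptor gene Grb2 fell as well.

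Genes that mark the extraembryonic layers mostly rose with Gata4, Gata6 and Hnf4a. Of 14 visceral endoderm genes 10 rose, 1 fell and 3 did not pass (median 1.16), where 34.5% of all tested genes rose and 34.0% fell, and their summed level was 1311.1 to 1331.9 CPM in the wild-type libraries and 2932.4 to 2989.3 CPM in the knockout. Among them Cubn, an endocytic receptor, rose by 2.22 (SE 0.034), Apoe, an apolipoprotein, by 1.63 (SE 0.059), Dab2, an endocytic adaptor and known GATA6 target, by 1.07 (SE 0.040) and Pdgfra, a primitive endoderm receptor, by 1.22 (SE 0.054). The member that fell was Ihh, a hedgehog ligand of visceral endoderm. Those that did not pass were Ttr, Cited1 and the abundant Lrp2, at 491.2 ± 5.65 CPM in wild type and 483.0 ± 3.61 CPM in the knockout. Of 12 parietal endoderm and basement membrane genes 9 rose, 2 fell and 1 did not pass (median 1.09), again beside 34.5% higher and 34.0% lower among all genes, with summed levels of 9433.5 to 9531.1 CPM against 20942 to 21636 CPM. Lamb1 and Lama1, encoding laminin chains, rose by 1.73 (SE 0.022) and 1.59 (SE 0.021), Col4a1 by 1.37 (SE 0.020) and Sparc, a matrix-binding protein, by 1.26 (SE 0.021). The members that fell were Fst, encoding follistatin, and Thbd, encoding thrombomodulin, which is itself a parietal endoderm marker. Thbd passed the filter on low counts only through the wild type, where it is high. Earlier results of these data already showed a rise of genes of the extraembryonic layers, so the counts of both lists are not independent support.

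Of 9 definitive endoderm genes tested 3 rose and 6 fell (median -1.01), against 34.5% and 34.0% of all tested genes. Krt19, a keratin gene, fell by 0.87 (SE 0.046), the signal gene Nodal fell by 1.60 (SE 0.14) and Trh fell by 1.93 (SE 0.17), whereas Epcam, an epithelial adhesion gene, rose by 1.04 (SE 0.065). Cxcr4, a receptor used to isolate definitive endoderm, also fell, and Cer1 had 1 count in 1 library and 0 in the others. Kit rose by 0.68 (SE 0.073) and Cldn6 by 0.35 (SE 0.044). Summed levels were 476.6 to 488.1 CPM in the wild-type libraries and 455.8 to 469.4 CPM in the knockout.

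**Figure D5:**
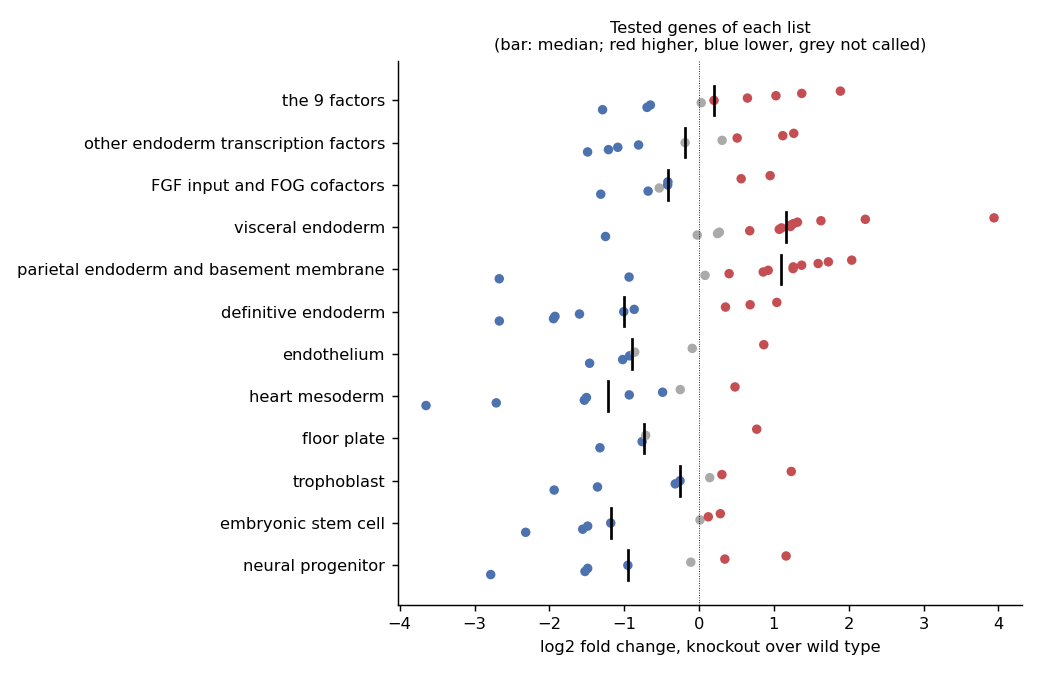
Log2 fold change of every tested gene in the 9 factors and the lists around them (x axis, knockout over wild type), coloured by the edgeR call, with the median of each list as a bar. Medians lie at 0.20 for the 9 factors, at 1.16 and 1.09 for visceral and for parietal endoderm and below 0 for every other list drawn. The hepatocyte list, with 1 tested gene, is not drawn.

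Other cell types that use these factors were followed in the same way, and their part in the changes above was not tested. The counts below stand beside 68.6% changed, 34.5% higher and 34.0% lower, among all genes tested. Of 10 endothelial genes, where Sox7, Sox17 and Hhex are also active, 6 were tested, 1 rose and 3 fell (median -0.89), with summed levels of 127.0 to 141.3 CPM in the wild-type libraries and 63.9 to 65.3 CPM in the knockout. Flt1, a VEGF receptor and the largest part of that sum, fell by 1.46 (SE 0.068), from 92.9 ± 4.07 to 33.7 ± 1.70 CPM. Pecam1 fell by 0.93 (SE 0.13), and Tek fell as well. Cdh5, the vascular cadherin, rose by 0.87 (SE 0.38). Tek passed the filter on low counts only through the wild type and Cdh5 only through the knockout, where each is high. Kdr and Lmo2 did not pass the test. Kdr stood at 12.3 ± 2.73 CPM in wild type and 11.6 ± 0.709 CPM in the knockout. The count of changed endothelial genes, 4, was 2 without wild-type replicate 3, without knockout replicate 1 and in DESeq2. The endothelial regulators Tal1, Erg, Etv2 and Tie1 had too few counts to be tested.

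Of 10 heart mesoderm genes, where Gata4 and Gata6 act, 8 were tested, 1 rose and 6 fell (median -1.22), where 34.0% of all tested genes fell. Actc1, cardiac actin, fell to a log2 fold change of -3.65 (SE 0.20), Nkx2-5 to -1.505 (SE 0.22), Tnnt2 to -2.71 (SE 0.43) and Tbx20 to -0.93 (SE 0.18), while Hand2 rose. Tnnt2 and Myl4, which fell as well, passed the filter on low counts only through the wild type, where they are high. Their summed level was 103.6 to 109.9 CPM in the wild-type libraries and 56.7 to 68.8 CPM in the knockout. Of 7 floor plate genes, where Foxa1 and Foxa2 act, 4 were tested, 1 rose and 2 fell (median -0.74), or 3 changed of 4, with summed levels of 37.65 to 44.7 CPM in the wild-type libraries and 29.2 to 31.8 CPM in the knockout. Ntn1, encoding netrin 1, fell by 1.32 (SE 0.15) and Spon1 by 0.76 (SE 0.24), while Lmx1b rose by 0.77 (SE 0.15). Ferd3l was at 0 counts in every library.

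Of 8 trophoblast genes 7 were tested, 2 rose and 4 fell (median -0.25) beside 68.6% changed among all genes, with summed levels of 109.2 to 114.6 CPM in the wild-type libraries and 83.5 to 88.5 CPM in the knockout. Krt7 fell by 1.94 (SE 0.13), Cdx2 fell by 1.36 (SE 0.33) and Gata2 fell by 0.32 (SE 0.13), and Plet1 rose by 1.23 (SE 0.18). The count of changed trophoblast genes, 6, was 3 without wild-type replicate 3, without knockout replicate 1 and in DESeq2. Markers of mature liver, where Hnf4a, Foxa3 and Hhex are best known, were near 0, with Serpina1a, Cyp7a1 and G6pc at 0 counts in all libraries. Alb had 1 count in wild-type replicate 1 and 1 in knockout replicate 3. Of the 8 genes of that list 1 could be tested, Fgb, a fibrinogen chain, which rose by 2.14 (SE 0.39), from 0.821 ± 0.444 to 3.63 ± 0.628 CPM. It passed the filter only through the knockout, where it is high.

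The design text calls the differentiated cells neural progenitors, while the labels give embryonic stem cells as the cell type. Of 9 neural progenitor markers, Fabp7 was at 0, Hes5 at 1 count in all and Sox1 at 10 to 23 counts per library, and of 7 tested 2 rose and 4 fell (median -0.95), 6 changed of 7 where 68.6% of all tested genes changed. Nes fell by 2.78 (SE 0.059), Cdh2 by 1.52 (SE 0.057) and Sox3 by 0.95 (SE 0.21), and Sox2, on both lists, is given below. In contrast, Pax6 rose by 1.16 (SE 0.28) and Msi1 rose by 0.34 (SE 0.096). Stem cell markers were still present, and of 7 tested 2 rose and 4 fell (median -1.18), the same count, among them Nanog, which opposes Gata6 in the early embryo and fell by 2.32 (SE 0.054), from 163.8 ± 3.88 to 32.8 ± 1.51 CPM. Zfp42, Esrrb and Sox2 fell to log2 fold changes of -1.55 (SE 0.063), -1.18 (SE 0.059) and -1.49 (SE 0.076). Pou5f1 rose by 0.12 (SE 0.049, edgeR adjusted p = 0.0294) and Klf4 by 0.28 (SE 0.066), while Dppa5a did not pass, at 0.013 (SE 0.042). The antisense gene Gm19553, with 909 to 1143 counts per library, covers 14.1% of the exon length of Pou5f1. The count of changed stem cell genes, 6, was 5 in DESeq2. It was also 5 without wild-type replicate 1 or 3 and without knockout replicate 1 or 2.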

How the data were processed

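Each library has 1 table, deposited by the authors, of raw read counts for Ensembl genes. The submitters' processing notes name HISAT2 2.1.0, HTSeq 0.9.1, DESeq2 1.18.1 and the build mm10. Annotation release and strand setting are not given in the sources used here. In each table, 5 closing tallies of reads given to no gene stayed out of library sizes, the largest being reads without a feature, 42.3 to 43.5% of each library. Symbols, positions and exon lengths came from GENCODE M21 (GRCm38, the build of mm10), which matched 52489 of 52636 identifiers, the others holding 0.0246% of counts.

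Counts were tested in edgeR 4.0.16 (R 4.3.3) on all 6 libraries, comparing the groups without covariates. Genes passed filterByExpr (minimum count 10), libraries were scaled by TMM, and genes were tested by quasi-likelihood F tests and adjusted by Benjamini-Hochberg over 15816 genes (threshold 0.05). Besides the genes marked above, some scarce list genes passed this filter only through the group where they are high. Among them were Lefty1 and Shh of the definitive endoderm list and Cdx2 of the trophoblast list, through the wild type. Apoa1 of the visceral endoderm list passed only through the knockout. A positive log2 fold change is higher in the knockout, SEs were derived from the F statistic, and intervals are at 95%. No replicate pair matched within sampling noise (chi-square per degree of freedom 1.91 to 7.14). The procedure was also run on simulated counts in which far fewer genes changed than here. That run therefore does not check the procedure where most genes change.

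The factors and lists were chosen with earlier results of these data known. Some genes of the list of other endoderm transcription factors are not reported here and were left out of its counts and median. The text names every factor, up to 4 changed genes per list by smallest adjusted p, and the 3 genes nearest to each factor. The nearest genes were sought among those with a mean CPM within 3 times that of the factor in either direction, leaving out predicted-gene names. Other genes are marked as chosen after their values were seen or given as list members. Alternatives were DESeq2 1.42.0, limma-voom (limma 3.58.1), RLE and upper-quartile scaling, other filters, the replicate number as a block, and leaving out each library.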

Additional observations from a re-analysis of the deposited data

How the results depend on the processing

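Of 126 recomputed fold changes of the 9 factors (14 alternatives each), 120 kept their direction and their side of the threshold. The 4 that lost the call were all of Hhex, given above, and Foxa2, never called, ranged from -0.093 (without knockout replicate 1) to 0.091 with 1 library left out and was -0.019 without wild-type replicate 2. The count of changed factors was 7 in DESeq2, 7 to 8 with 1 library left out and 8 elsewhere, including the alternative without mitochondrial and ribosomal RNA locus genes, which was added after seeing the data. The values do not settle whether the replicate number shared by the labels pairs the libraries. Correlations of same-numbered deviations were small (0.00956 to 0.0389), although every library correlated best with its own number, a hint only. With the replicate block 8 factors changed, 5 higher and 3 lower, and 10862 of all genes against 10848. Changed endothelial genes, 4, ranged from 2 to 3 and trophoblast genes, 6, from 3 to 5 with 1 library left out, and were 2 and 3 in DESeq2; the cause was not tested. The log2 ratios per exon length with 1 library left out were 0.30 to 0.44 for Gata6 to Gata4, -0.97 to -0.72 for Sox17 to Sox7 and -0.88 to -0.59 for Foxa1 to Foxa2. Counts under 20 limit Foxa3 and Hhex.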
